A study of Mus musculus with 4 samples.

Results

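The 10 genes described here are used to recognise dendritic cells: Flt3, Zbtb46, Batf3, Xcr1, Wdfy4, Itgae, Naaa, Cd24a, Dpp4 and Fscn1. They were found by symbol among 53379 Ensembl mouse gene identifiers, 1 identifier for each symbol, and the rule that chose them names the genes and uses no count. Their RNA was measured in macrophages sorted from MC38 tumours of C57BL/6J mice 21 days after the tumour cells were implanted. MC38 is a mouse colon carcinoma line. The compared groups were 2 mice fed a high-fat diet (HFD) and 2 mice fed a control diet, with 1 library for each mouse, and all of them carried the tumour. Cells were sorted as positive for CD45, CD11b and F4/80, and no genetic change of the hosts is named in the labels, which give neither age nor sex.

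Dendritic cells take up antigen and present it to T cells. Conventional dendritic cells arise from precursors that need the receptor FLT3 and its ligand, and they express the transcription factor ZBTB46. Their type 1 subset (cDC1) depends on BATF3 and IRF8, carries XCR1 and CLEC9A, and is the subset best known for presenting tumour antigen to CD8 T cells. The type 2 subset (cDC2) depends on IRF4 and carries CD11b, one of the markers of the sort, whereas cDC1 carry little of it. Several of the 10 genes are also used by other cells. Cd24a is expressed by neutrophils, epithelial and tumour cells, Dpp4 by T cells and fibroblasts, Itgae by T cells of epithelia, and Fscn1 by carcinoma and stromal cells.

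Libraries held 34148682 to 37159552 counts. Macrophage markers were abundant in every library, and all 10 of them were detected. In CPM (the count scaled to the library size, with TMM factors) they summed to 15430 and 16230 in HFD mice 1 and 2. In control mice 1 and 2 they summed to 13140 and 15960, so control mouse 1 was the lowest. Of 18422 genes that passed the filter on low counts, edgeR called 10.5% at an adjusted p below 0.05, 2.61% as higher in HFD and 7.91% as lower. The control mice were less alike than the HFD mice. Control mouse 1 lay at least 2-fold above mouse 2 in 2.4% of the tested genes and mouse 2 as far above mouse 1 in 2%, while the HFD mice lay that far apart, in either order, in 0.782% (ratios of CPM + 0.5).

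All 10 dendritic cell genes passed the filter, 2 were called lower in the HFD libraries (Wdfy4 and Naaa) and 0 higher. Over all tested genes 7.91% were called lower. In these bulk samples, fewer cells of a type and less RNA per cell cannot be told apart. At an unadjusted p below 0.05, 5 were lower and 0 higher, against 17.7% and 13.6% of all tested genes. DESeq2 called 4 lower and 0 higher, against 10.9% and 5.87% of all. The log2 fold change was below 0 for 8 genes and the median over the 10 was -0.96, against 0.005 over all tested genes. Without control mouse 1 that median was -0.39. Both HFD libraries lay below both control libraries for 5 genes (31.6% of all tested genes) and above both for 1 gene, Batf3 (32.2% of all tested genes).

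**Figure D1:**
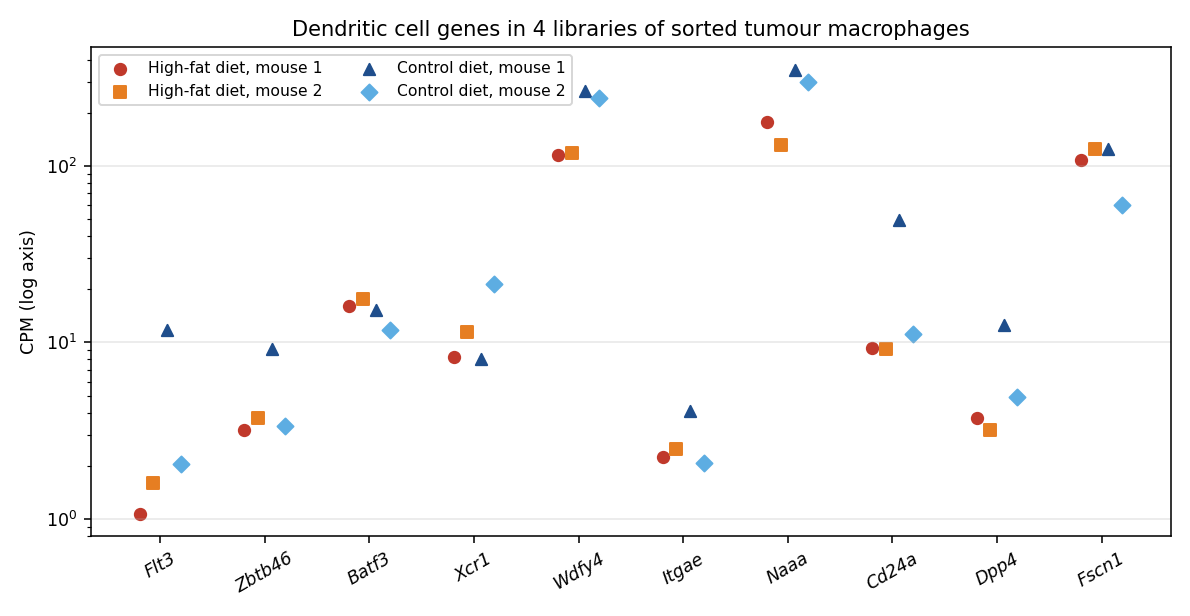
CPM of each gene on a log axis, 1 point for each of the 4 libraries. Wdfy4 and Naaa lie apart by diet, from 115.6 to 119 against 242.9 and 264.5 CPM and from 131.4 to 177.3 against 298.7 and 351.1 CPM, while Flt3, Zbtb46, Cd24a and Dpp4 are high in control mouse 1 alone.

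Divided by the length of the exons, so that levels can be compared between genes, the 10 genes spanned more than 2 orders of magnitude. In the control libraries the mean CPM per kilobase of exon was highest for Naaa (87.3), followed by Fscn1 (30.7), Wdfy4 (24), Cd24a (11.7), Batf3 (8.44) and Xcr1 (3.31). Dpp4 (1.38), Flt3 (1.11), Zbtb46 (0.737) and Itgae (0.67) were the lowest, and from Xcr1 down the ranges of neighbours over the control mice overlapped. The ranges of Fscn1 and Wdfy4 overlapped too, as did those of Cd24a and Batf3. In the HFD libraries Naaa (41.5) and Fscn1 (38.5) overlapped at the top, Wdfy4 (11.1) and Batf3 (10.5) came next with overlapping ranges, and Flt3 (0.215) was the lowest, apart from all others. The genes that are most restricted to dendritic cells, Flt3, Zbtb46 and Xcr1, were present at low levels in these sorted cells. Naaa and Wdfy4, the 2 called genes, stood well above them in both diets. Which of the sorted cells held the RNA of Naaa and Wdfy4 was not tested.

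Wdfy4, a BEACH-domain protein that cDC1 need to cross-present cell-bound antigen, fell with the high-fat diet. Its level was 115.6 and 119 CPM in HFD mice 1 and 2, and 264.5 and 242.9 CPM in control mice 1 and 2. The diets did not overlap, and the mice of a diet lay close together. The mean was 117 ± 2.43 against 254 ± 15.3 CPM (SD, n = 2), and the log2 fold change was -1.11 (SE 0.14, edgeR adjusted p = 0.0144). The log2 fold change stayed between -1.17 and -1.05 when any 1 library was left out, and the call ended without HFD mouse 1 (edgeR adjusted p = 0.0804) and without HFD mouse 2 (0.0674). The gene lies on chromosome 14 from 32959547 to 33185508 (GRCm38, minus strand). Lrrc18, on the opposite strand within it, had at most 1.69 CPM.

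Naaa, the lysosomal amidase that hydrolyses N-acylethanolamines such as palmitoylethanolamide, fell by a like amount. Its level was 177.3 and 131.4 CPM in the HFD mice and 351.1 and 298.7 CPM in the control mice, again without overlap. The mean was 154 ± 32.5 against 325 ± 37.1 CPM (SD, n = 2), and the log2 fold change was -1.07 (SE 0.20, edgeR adjusted p = 0.0308). The call ended without HFD mouse 2 (log2 fold change -0.85, edgeR adjusted p = 0.14). Naaa lies on chromosome 5 from 92257659 to 92278170 (minus strand), 5.84 kb past the 3' end of the expressed gene Sdad1. Asah1, which encodes the related acid ceramidase, had 276.6 and 214 CPM in the HFD and 157.6 and 212.4 CPM in the control mice (edgeR adjusted p = 0.243). Faah, the other hydrolase of N-acylethanolamines, had at most 2.4 CPM in any library.

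The 250 bases before the RefSeq start (GRCm38.p6) are printed for the 2 genes that fell together, Wdfy4 (chr14:33185067-33185316, minus strand) and Naaa (chr5:92278182-92278431, minus strand), and for Flt3 (chr5:147400490-147400739, minus strand), which had the largest fold among the 10 but was split between the control mice. They are written 5′ to 3′, and capitals mark a match to a searched motif. For Wdfy4, the GENCODE gene starts further upstream, at 33185508, so that its window lies within the span of that gene.
Wdfy4: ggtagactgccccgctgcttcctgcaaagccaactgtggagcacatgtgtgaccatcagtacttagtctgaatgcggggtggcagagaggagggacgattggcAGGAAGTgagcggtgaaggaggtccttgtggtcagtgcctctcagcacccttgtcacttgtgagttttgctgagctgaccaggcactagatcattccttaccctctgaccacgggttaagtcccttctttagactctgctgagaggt
Naaa: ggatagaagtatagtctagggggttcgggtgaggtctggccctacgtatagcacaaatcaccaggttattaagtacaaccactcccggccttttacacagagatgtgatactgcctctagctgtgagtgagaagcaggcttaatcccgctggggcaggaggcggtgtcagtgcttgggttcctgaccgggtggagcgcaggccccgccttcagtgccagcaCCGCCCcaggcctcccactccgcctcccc
Flt3: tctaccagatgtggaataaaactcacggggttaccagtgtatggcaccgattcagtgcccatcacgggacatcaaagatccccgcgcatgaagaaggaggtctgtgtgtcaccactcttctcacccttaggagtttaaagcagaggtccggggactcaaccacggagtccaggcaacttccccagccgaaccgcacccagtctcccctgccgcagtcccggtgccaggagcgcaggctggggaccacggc
The motifs were searched on both strands in the entries that 8 of the 10 genes have, and were picked with the sequences in view: AGGAAGT of ETS factors, GAAA followed by any 2 bases and GAAA again, of interferon regulatory factors, TGANTCA of AP-1, the TATA box TATAAA and the GC box GGGCGG. The window of Wdfy4 held AGGAAGT at -147 to -141, which 7.69% of 32851 windows held, and no other motif. That of Naaa held the GC box on the opposite strand at -29 to -24, which 32.7% held, and no other. None of these letters stood in the window of Flt3. The 2 genes that fell together shared none of the 5 motifs in these windows.

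Flt3, the receptor tyrosine kinase on which dendritic cell precursors depend (chromosome 5, 147330741 to 147400489, GRCm38), was not called. It had 1.07 and 1.59 CPM in the HFD mice (40 and 61 counts), and 11.7 CPM in control mouse 1 against 2.04 CPM in mouse 2 (380 and 76 counts). The diets did not overlap, but control mouse 2 lay nearer to the HFD mice than to its fellow. The log2 fold change was -2.36 (SE 0.78, edgeR adjusted p = 0.104). It was -0.61 without control mouse 1 and -3.13 without control mouse 2. These 2 fits hold 1 control library and cannot measure the spread between the control mice. DESeq2 called Flt3 with all libraries (adjusted p = 0.00578). Flt3l, which encodes the ligand, had 4.83 and 4.69 against 6.04 and 4.03 CPM (edgeR adjusted p = 0.87).

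Zbtb46, the transcription factor of the conventional dendritic cell lineage (chromosome 2, 181387762 to 181459426), had 3.21 and 3.73 CPM in the HFD mice. In the control mice it had 9.19 and 3.36 CPM. Control mouse 1 was high, and mouse 2 lay between the HFD mice. The log2 fold change was -0.85 (SE 0.47, edgeR adjusted p = 0.265), and 0.05 without control mouse 1.

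Batf3 and Xcr1, both genes of cDC1, were not called. Batf3, the AP-1 family factor that cDC1 need to develop (chromosome 1, 191097847 to 191108945), had 15.97 and 17.56 CPM in the HFD and 15.2 and 11.75 CPM in the control mice. It was the only one of the 10 whose HFD libraries both lay above the control libraries, with a log2 fold change of 0.32 (SE 0.20, edgeR adjusted p = 0.318). Xcr1, the receptor for the chemokine XCL1 (chromosome 9, 123852315 to 123862029), had 8.28 and 11.4 CPM in the HFD mice and 8.02 and 21.5 CPM in control mice 1 and 2. It was the only one of the 10 that was more than 2-fold higher in control mouse 2 than in mouse 1. Its log2 fold change was -0.59 (SE 0.45, edgeR adjusted p = 0.413), 0.30 without control mouse 2 and -1.12 without control mouse 1. Stretches of 140 to 142 bases of the Xcr1 transcript were at least 95% identical to stretches in transcripts of Rnpep, Sec14l1 and Gmip, each above 127 CPM in every library, so reads there may have been split. Xcl1 itself had 0.748 and 1.17 against 2.68 and 1.18 CPM (edgeR adjusted p = 0.226).

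Itgae encodes CD103, the integrin chain of migratory cDC1, which binds E-cadherin (chromosome 11, 73090583 to 73147446). It had 2.24 and 2.5 CPM in the HFD and 4.07 and 2.07 CPM in the control mice, with overlap (log2 fold change -0.37, SE 0.38, edgeR adjusted p = 0.549). The sign turned without control mouse 1 (0.20). Itgae starts 1.27 kb past the 3' end of the expressed gene Ncbp3, and Haspin lies within it on the opposite strand. Haspin had 24.1 and 17.9 CPM in the HFD and 8.14 and 10.5 CPM in the control mice, more than Itgae in every library. Where counting did not use strand, reads from any exon bases that both genes share could not be told apart. Whether the exons share bases was not examined, and the part of Haspin reads in the value of Itgae was not tested. Itgb7, the beta chain with which CD103 pairs, fell. It had 122 and 118.5 CPM against 417.1 and 337.8 CPM, a log2 fold change of -1.65 (SE 0.17, edgeR adjusted p = 0.00943), and it was called in each fit without 1 library. The beta chain also pairs with the alpha 4 integrin on other leukocytes.

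Cd24a, Dpp4 and Fscn1, the surface and cytoskeletal genes, were not called. Cd24a encodes the glycoprotein CD24, a ligand of Siglec-G (chromosome 10, 43578284 to 43584265). It had 9.27 and 9.23 CPM in the HFD mice, 49.4 CPM in control mouse 1 and 11.2 CPM in mouse 2. The diets did not overlap, but the log2 fold change of -1.71 (SE 0.62, edgeR adjusted p = 0.127) was -0.27 without control mouse 1. A predicted gene, Gm6212, holds a copy of 218 bases of the transcript at 96.8% identity and had 0.507 and 0.99 CPM in the HFD and 4.78 and 0.591 CPM in the control mice, so that the high value of control mouse 1 appeared there as well. Siglecg, chosen after its values were seen, was also high in control mouse 1, with 11.2 CPM against 1.83 CPM in mouse 2 and 0.427 and 0.756 CPM in the HFD mice (edgeR adjusted p = 0.0586).

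Dpp4 encodes the peptidase CD26 (chromosome 2, 62330073 to 62412231). It had 3.74 and 3.18 CPM in the HFD and 12.5 and 4.92 CPM in the control mice, without overlap (log2 fold change -1.33, SE 0.45, edgeR adjusted p = 0.107). Without control mouse 1 the log2 fold change was -0.50, and DESeq2 called the gene with all libraries (adjusted p = 0.0257). Fscn1 encodes fascin, an actin-bundling protein of mature dendritic cells (chromosome 5, 142960343 to 142973185). Its level was 107.6 and 124.2 CPM in the HFD mice and 124.8 and 60.3 CPM in the control mice. Here control mouse 2 was low and the other 3 mice lay together. The log2 fold change was 0.32 (SE 0.33, edgeR adjusted p = 0.538), -0.11 without control mouse 2, and 0.95 without control mouse 1.

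**Figure D2:**
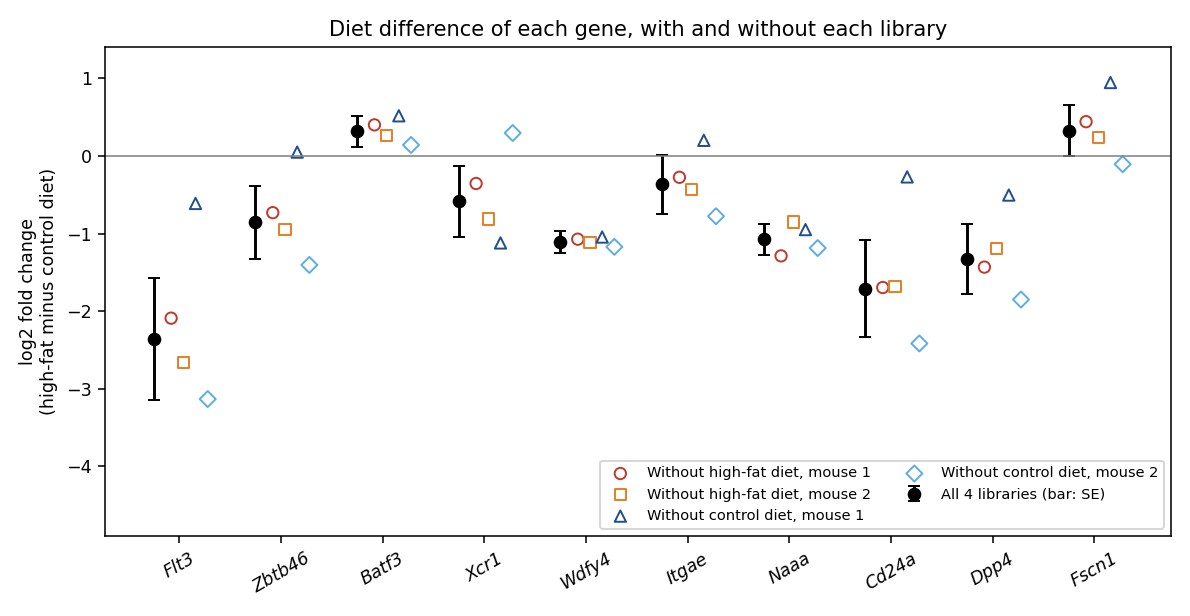
Log2 fold change of each gene (high-fat minus control diet), with all 4 libraries (filled, bar = SE) and without each library in turn (open). Wdfy4 stays between -1.17 and -1.05 and Naaa between -1.29 and -0.85. The fits without either control mouse lie farthest apart for every gene but Naaa.

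Most of the 10 genes differed between the control mice. Control mouse 1 was at least 2-fold above mouse 2 for 5 of the 10 genes (Flt3, Zbtb46, Cd24a, Dpp4 and Fscn1), against 2.4% of all tested genes, and at least 2-fold below it for Xcr1. The HFD mice were 2-fold apart for 0 of the 10. A fit without 1 mouse takes its spread from the 2 mice of the other diet. Its calls therefore do not measure the spread within the diet left with 1 mouse. Without control mouse 2 edgeR called 6 of the 10 lower, namely Flt3, Zbtb46, Wdfy4, Naaa, Cd24a and Dpp4, in a fit that called 13.2% of all tested genes lower. Without control mouse 1 it called Wdfy4, Naaa and Xcr1 lower and Fscn1 higher, against 8.65% and 4.4% of all. Without HFD mouse 1 only Naaa was called, and without HFD mouse 2 none was, in fits that called 1.52% and 1.57% of all genes lower.

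**Figure D3:**
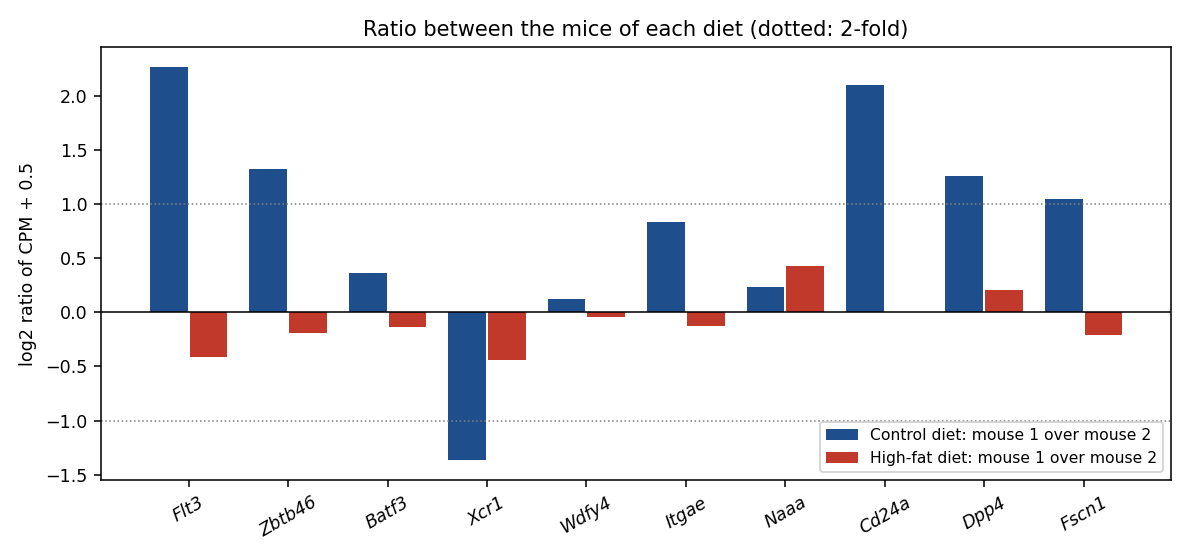
Log2 ratio of CPM + 0.5 between mouse 1 and mouse 2 of each diet, 1 pair of bars for each gene, with 2-fold marked by dotted lines. In the control mice the ratio runs from -1.37 (Xcr1) to 2.26 (Flt3), and in the HFD mice from -0.44 to 0.43.

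The remaining genes of dendritic cell biology were read from 6 further lists. Over all tested genes 7.91% were called lower and 2.61% higher. Of 10 tested further cDC1 genes 1 was called lower, Clec9a. Clec9a, the receptor by which cDC1 sense the actin of dead cells, had 3.15 and 2.42 CPM in the HFD mice and 15.2 and 16.5 CPM in the control mice. Both control mice were high and close together, unlike for Xcr1 or Flt3. Clec9a fell 5.68-fold, a log2 fold change of -2.51 (SE 0.23, edgeR adjusted p = 0.00735), and stayed called in each fit without 1 library. The other 9 ran from -0.72 to 0.84 on the log2 scale. Irf8, the factor that works with BATF3, had 304.2 and 293 against 550.4 and 419.7 CPM and was not called (edgeR adjusted p = 0.0617), and the whole list had a median of -0.39. Irf8 was singled out after its values were seen.

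Of 10 cDC2 genes 4 were called lower, against 7.91% of all tested genes, and the median log2 fold change was -1.34. That median was -0.41 without control mouse 1 and -1.56 without control mouse 2. Notch2, the receptor that supports CD11b-positive dendritic cells, fell 2.32-fold from 460 ± 37.4 to 198 ± 1.18 CPM (SD, n = 2, edgeR adjusted p = 0.0139). Klf4, a transcription factor of cDC2 and of monocytes, fell 2.78-fold from 740 ± 278 to 266 ± 6.91 CPM. Irf4 fell 5.70-fold, with 2.40 and 2.32 CPM in the HFD mice and 21.1 and 5.91 CPM in the control mice. Cd209a, a C-type lectin of the DC-SIGN family, had 7 and 6 counts in the HFD libraries and 368 and 46 in the control libraries, 0.187 and 0.156 against 11.3 and 1.237 CPM. It fell with a log2 fold change of -5.16 (SE 1.154, edgeR adjusted p = 0.0434), and with -2.82 without control mouse 1. Irf4 moved to -1.32 without that mouse. All 4 calls ended without either HFD mouse. With no filter on low counts, Cd209a (edgeR adjusted p = 0.301) and Irf4 (0.23) were not called, nor with a filter of 1 CPM in 2 libraries (0.0543 and 0.0575), which left 2 cDC2 genes called. With the mouse numbers crossed as a block, the call of Irf4 ended too (0.064). Notch2 and Klf4 stood well above Irf4 and Cd209a in both diets. Which of the sorted cells held the RNA of these cDC2 genes was not tested.

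Among 14 tested genes of mature, migratory dendritic cells edgeR called 0. At an unadjusted p below 0.05, 5 were lower and 0 higher, against 17.7% and 13.6% of all tested genes. DESeq2 called 3 lower and 0 higher, against 10.9% and 5.87% of all. Ccr7, the receptor that guides mature dendritic cells to lymph nodes, had the smallest p. It had 2.94 and 5.63 CPM in the HFD and 30.1 and 8.5 CPM in the control mice (log2 fold change -2.17, SE 0.62, edgeR adjusted p = 0.076), with control mouse 1 again the highest. Its log2 fold change was -0.98 without control mouse 1. Over this list the median log2 fold change was -0.425, and it was -0.64 without control mouse 2 and -0.172 without control mouse 1. Cacnb3, which is named here after its values were seen, had a log2 fold change of 0.765 without control mouse 1. Of 8 tested genes of plasmacytoid dendritic cells, the interferon-producing type, Ly6d alone was called lower, from 0.967 ± 0.191 to 0.0531 ± 0.0382 CPM (SD, n = 2, edgeR adjusted p = 0.0224), on 27 and 41 against 3 and 1 counts. Ly6d is also expressed by B cell precursors and epithelial cells. Its log2 fold change of -4.11 was -5.02 without HFD mouse 1 and -3.52 without HFD mouse 2, where its call ended (edgeR adjusted p = 0.077 and 0.112). Ly6d was not tested under the filter of 1 CPM in 2 libraries. Siglech, the defining receptor of plasmacytoid cells and picked after its values were seen, had at most 27 counts in a library.

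Of 10 factors of dendritic cell development 4 were called lower, against 7.91% of all tested genes, and all 10 had a log2 fold change below 0 (median -0.64). Nfil3, which acts early in cDC1 specification, fell 3.58-fold from 369.1 and 186.7 to 68.2 and 87.3 CPM (edgeR adjusted p = 0.03). Bcl6, a repressor that favours cDC1, fell 1.83-fold from 140 ± 1.67 to 76.8 ± 5.45 CPM (SD, n = 2). Etv6 fell 1.97-fold and Bcor, a corepressor that binds BCL6, fell 1.6-fold. These 4 factors are expressed in macrophages as well. All 4 calls ended without either HFD mouse (edgeR adjusted p from 0.0947 to 0.213), and that of Bcor also without control mouse 1 (0.0572) and with the mouse number as a block (0.0626). The median of this list was -0.51 without control mouse 1 and -0.8 without control mouse 2. Among the 10 ligands and partners of the described genes Itgb7 alone was called. Their median log2 fold change was -0.566, and it was -0.252 without control mouse 1 and -0.943 without control mouse 2. In the edgeR fit of diet alone and in DESeq2, both on all 4 libraries, 0 genes of the 6 lists were called higher, and 0 were higher at an unadjusted p below 0.05 in the former. With the mouse numbers crossed as a block, 1 further cDC1 gene was called higher. Some genes of these lists lay well above 0 when a control mouse was left out. Without control mouse 2 the log2 fold change was 1.59 for Cadm1 and 1.41 for Tlr3, against 0.57 and 0.84 with all libraries. Without control mouse 1 it was 1.11 for Cox6a2 and 0.765 for Cacnb3, against 0.65 and 0.113. These genes were picked after their values were seen.

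**Figure D4:**
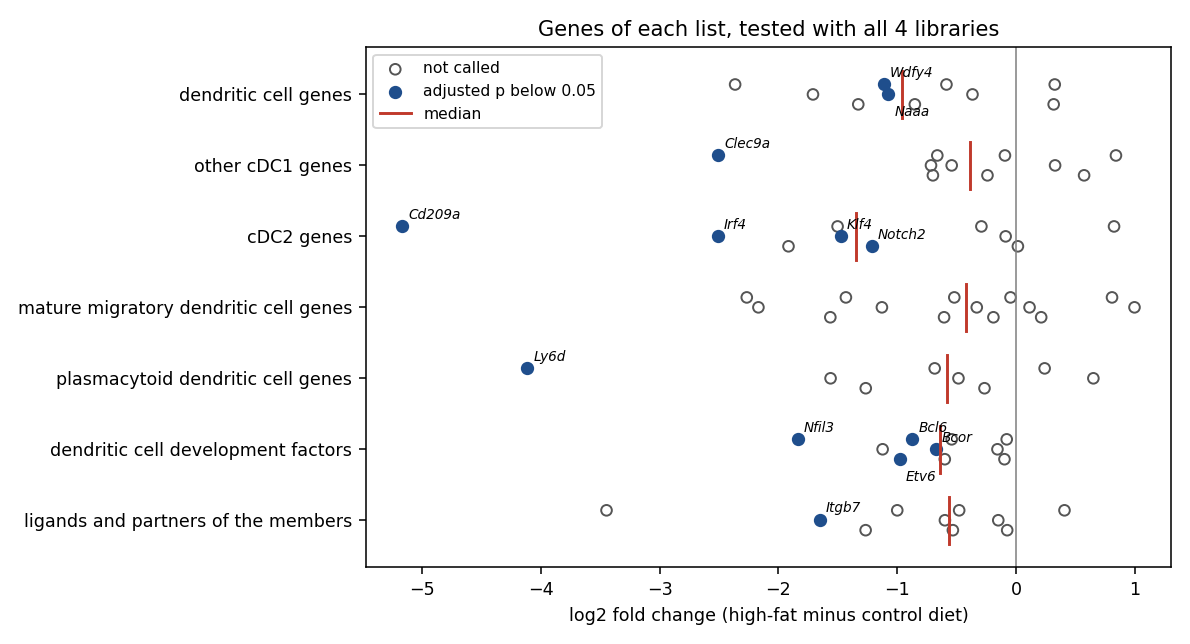
Log2 fold change (high-fat minus control diet) of every tested gene, 1 row for each list, with called genes filled and named and the list's median as a red line. All called genes lie below 0, and the cDC2 list has the lowest median (-1.34), which is -0.41 without control mouse 1, where the development factors are lower (-0.51).

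Markers of other cells that the sort could hold were read from the same libraries. The 6 monocyte markers summed to 985 and 577 CPM in the HFD mice and to 1397 and 573.6 CPM in control mice 1 and 2, and 4 of the 6 were at least 2-fold higher in control mouse 1 than in mouse 2. The 9 T and NK cell markers summed to 19.6 and 18.9 CPM against 53.1 and 16.1 CPM, with 7 of the 9 at least 2-fold higher in control mouse 1, 1 called higher in HFD and 1 lower. The 7 neutrophil markers summed to 190.8 and 168.8 CPM against 381.3 and 189.7 CPM, and 5 of them were called lower. Csf3r and Mmp9, which were not called, had the highest levels of this list in every library and weighed most in the sums. S100a9, which was called, had 2.75 and 2.19 against 55.4 and 24.8 CPM. Ly6g was at 0 in both HFD libraries and had 10 and 30 counts in the control libraries. By summed CPM, control mouse 1 was the highest for these 3 marker lists. It was also highest for Flt3, Zbtb46, Wdfy4, Itgae, Naaa, Cd24a and Dpp4, and narrowly for Fscn1 (124.8 against 124.2 CPM in HFD mouse 2). The part of such other cells in the values of those genes was not tested.

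The 6 epithelial and tumour cell markers had another pattern. They summed to 1.01 and 0.86 CPM in the HFD mice and to 13.2 and 58.8 CPM in control mice 1 and 2, and all 6 were called lower. Cldn4 was at 0 in HFD mouse 1. Control mouse 2, highest here, held 21.5 CPM of Xcr1, 11.2 CPM of Cd24a and 60.3 CPM of Fscn1. The 8 fibroblast markers summed to 2041 and 2025 CPM in the HFD mice and to 1024 and 773.6 CPM in the control mice, and 5 were called higher. Dpp4 had 3.74 and 3.18 CPM in the HFD and 12.5 and 4.92 CPM in the control mice. The part of epithelial, tumour or fibroblast cells in the values of Xcr1, Cd24a, Fscn1 and Dpp4 was not tested. Endothelial markers summed to 57.7 and 65.8 against 237.2 and 79.8 CPM, with 0 of 4 tested genes called. Flt1 weighed most in control mouse 1 (149.9 CPM). The 4 tested genes were split: in both HFD mice 2 lay below both control mice (Flt1 and Pecam1) and 2 above. Those above were Cdh5, with 4.94 and 5.73 against 3.24 and 1.48 CPM, and Kdr, with 6.89 and 6.98 against 5.61 and 3.23 CPM. B cell markers summed to 11.8 to 18.6 CPM in the 4 libraries, with 1 of 4 tested genes called lower.

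**Figure D5:**
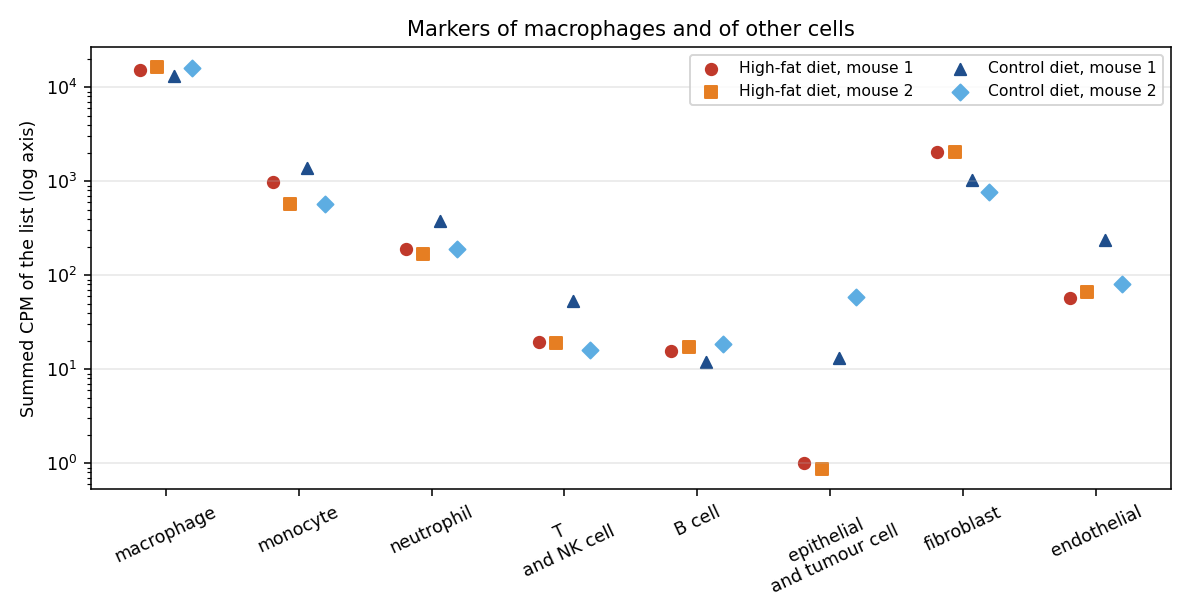
Summed CPM of each marker list on a log axis, 1 point for each library. Control mouse 1 is highest for monocyte, neutrophil, T and NK cell and endothelial markers, and control mouse 2 for epithelial markers at 58.8 CPM. The macrophage markers run from 13140 CPM in control mouse 1 to 16230 CPM in HFD mouse 2.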

How the data were processed

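The deposited table gave raw counts for each gene in each library, with no normalisation by the authors. Per the submitters' processing notes, the tools were DESeq2 1.24.0, BWA 0.7.12, cutadapt 1.15 and FastQC 0.11.5, and the builds GRCm38 and mm10. Libraries came from a stranded mRNA kit, per the labels' protocols. Which program counted the reads, and whether by strand, is not given in the sources used here. Titles name a mouse for each library, so each library counted as 1 animal. Symbols were matched by identifier for 53274 of 53379 genes. Positions and exon lengths came from GENCODE mouse release 21 (GRCm38) and promoter windows from RefSeq.

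Diet was tested with edgeR 4.0.16 (R 4.3.3): filterByExpr (minimum count 10, minimum total 15), TMM scaling, robust quasi-likelihood test, and Benjamini-Hochberg adjustment over all 18422 tested genes. A gene was called at an adjusted p below 0.05, and was said to rise or fall only then. SE is the log2 fold change divided by the square root of F. The steps were tested on simulated counts drawn with the same spread in both diets. That test does not cover the unequal spread of these data, where the control mice were less alike. Copies of transcripts were sought with BLAST 2.17.0 (at least 95% identity over 100 bases). Neighbours were called expressed from an average log2 CPM of 5. Alternatives were DESeq2 1.42.0, RLE and upper-quartile scaling, no or a stricter filter, the mouse number as a block, and each library left out, where the lone mouse of a diet is assumed to vary like the other diet. Named were the 10 genes and, from each list, up to 4 called genes, or the one of smallest p. Further genes in the text, such as Flt3l, Xcl1, Asah1, Faah and single markers of other cells, were named outside this rule. Genes and lists were chosen with earlier results of these data known. Depth, 34148682 to 37159552 counts, makes counting error small except for genes of few counts, and with 2 mice per diet the spread between mice limits precision.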

Additional observations from a re-analysis of the deposited data

How the results depend on the processing

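The directions of the 10 genes held under every change of scaling, filter and test, and turned only when a control mouse was left out (log2 fold change without mouse 1 and without mouse 2): Zbtb46 0.05 and -1.41, Itgae 0.20 and -0.78, Xcr1 -1.12 and 0.30, and Fscn1 0.95 and -0.11. Among the 10, the number called lower was 4 by DESeq2 and 0 to 6 with 1 library left out, and the number called higher 0 to 1. Over all genes, the number called higher was 480, and became 1082 by DESeq2, 1552 with no filter on low counts, 305 with a filter of 1 CPM in 2 libraries, and 71 to 1934 with 1 library left out. The number called lower was 1457, and became 2231 with no filter and 300 to 2534 with 1 library left out. With the mouse number as a replicate block, 567 genes were higher and 1481 lower, Wdfy4 and Naaa were still called (edgeR adjusted p = 0.00967 and 0.0115), and of the other named genes Bcor alone lost its call. The labels do not say that equal numbers share a litter or day, and deviations of same-numbered mice from their diet's mean correlated at -0.191 across 10347 genes. With the numbers crossed, an alternative chosen after seeing the data, 909 genes were higher and 1546 lower. The cause of these changes was not tested. Genes of few counts, such as Flt3 with 40 and 61 in the HFD mice, carry the most counting error.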
